A study of Homo sapiens with 6 samples.

Results

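Fatty acid synthesis and oxidation were followed through 39 genes picked by name from 58233 genes in the deposited tables. They comprise 12 genes of synthesis and desaturation, 4 acyl-CoA synthetases, 4 genes of the carnitine shuttle, 11 genes of mitochondrial and 4 of peroxisomal beta-oxidation, and 4 genes of lipid sensing, fuel choice and storage. All 39 were found. Levels are in FPKM, fragments scaled to transcript length and library size, and 38 of the 39 passed the filter of a mean FPKM of 1, as did 12853 genes in all. The cells were labelled Huh7, a human hepatocellular carcinoma line. Of 6 RNA sequencing libraries, 3 came from cells given a plasmid that overexpresses the long noncoding RNA TP53TG1 and 3 from cells given the empty plasmid (control). The labels do not give the time from transfection to harvest, and they do not say whether replicates were separate cultures. A p-value here thus reflects only how far these 6 samples scatter, and that scatter may be technical. In such bulk samples fewer cells of a type and less RNA per cell cannot be told apart.

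Cells build fatty acids in the cytosol. ATP citrate lyase (ACLY) makes acetyl-CoA from citrate, acetyl-CoA carboxylases (ACACA, ACACB) turn it into malonyl-CoA, and fatty acid synthase (FASN) joins these units into palmitate, which elongases (ELOVL) and desaturases (SCD, FADS1, FADS2) modify. Breakdown runs the other way: acyl-CoA synthetases (ACSL) activate the fatty acid, carnitine palmitoyltransferases carry it into mitochondria, and a cycle of dehydrogenase, hydratase and thiolase reactions shortens it, with a parallel set of enzymes in peroxisomes. Malonyl-CoA inhibits CPT1A, so that the liver does not run both directions at full rate at once. SREBF1 encodes the transcription factor that induces the synthesis genes, and PPARA encodes a fatty acid sensor that induces oxidation genes.

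Values below are scaled FPKM, that is, deposited FPKM divided by a median-of-ratios factor for each library, which was lowest for TP53TG1 replicate 1 (0.601) and highest for control replicate 2 (1.19). The typical gene lay at a log2 fold change of -0.35 in unscaled values and of -0.0040 in scaled ones (medians over the tested genes). Both libraries numbered 1 stood apart. Their FPKM-weighted transcript length over coding genes was 1385 nt in the control and 1290 nt with TP53TG1, against 1710 to 1768 nt in the other 4 libraries, and small structured RNAs held 6.62% of all FPKM in TP53TG1 replicate 1 against 0.257% to 1.53% elsewhere. Read from the steps between low values, the libraries held about 11000000 to 14800000 fragments, an estimate with no interval. TP53TG1, the transfected gene, stood at 116, 122 and 70.0 scaled FPKM in the TP53TG1 libraries and at 9.52, 4.42 and 5.20 in the controls (limma with Benjamini-Hochberg adjusted p = 0.0465). That call was lost without any of the 6 libraries in turn.

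The liver character of the line was only partly visible. Of 13 hepatocyte markers 9 reached a mean of 1 scaled FPKM, with albumin (ALB) between 0.448 and 1.11 and transthyretin (TTR) at 0 in 4 of 6 libraries. FABP1, which encodes the liver fatty acid binding protein and is among the most abundant hepatocyte transcripts, was listed at 0 in 4 libraries, at 0.126 in control replicate 2 and at 0.281 in TP53TG1 replicate 2. By the same steps these values rest on about 1.1 and 2.1 fragments. FABP1 is the member that was not tested. Of 8 intestinal epithelium markers 5 reached a mean of 1, among them KRT20 at 83.3 to 154 scaled FPKM, and the sum over the list ran from 152 to 312 in the controls and from 109.99 to 153 with TP53TG1. Of 5 adipocyte markers ADIPOQ, LEP and FABP4 were at 0 throughout and PLIN1 was at most 0.279, while CIDEC was at 8.43 to 24.4. All 5 fibroblast markers reached a mean of 1, with sums of 16.04 to 19.2 in the controls and 20.4 to 54.0 with TP53TG1. Of these COL1A1 was at 18.1 in TP53TG1 replicate 1 and at 1.52 to 3.17 elsewhere. Of 4 leukocyte markers 1 reached a mean of 1. The part of these lists in the members' values was not tested.

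None of the 38 tested members passed the test between TP53TG1 and control cells. The test called 2 of 12853 genes, 0.0156%, which were TP53TG1 itself and TTC28-AS1_2, and 6 genes, 0.0467%, with the replicate number as a block; 0 members were called in either fit. At an unadjusted p under 0.05 there were 0 members, against 1.17% of all tested genes. With the block there were 3, ACAA1, ACSL5 and ME1, against 5.31% of all tested genes. Log2 fold changes of the members ran from -0.42 for PDK4 to 0.51 for ACSL5, 18 above and 20 below 0, and their median was -0.021 beside -0.0040 for all tested genes. Adjusted p was 1.00 by limma for each of the 38. Unscaled values put 36 of the 38 below 0, at a median of -0.41, and TPM put 26 below 0, with 0 called in both. Without both libraries numbered 1, 20 lay above and 18 below 0, and 0 were called. In that fit 4 had an unadjusted p under 0.05, ACSL5, ECI1, ELOVL6 and ME1, against 4.4% of all genes tested there. For ELOVL6, a 204 nt model at 0 in all other libraries held 45.7% of the gene in TP53TG1 replicate 2. Groups did not overlap for 1 member higher with TP53TG1, ACSL5, where 2.01% of all tested genes were so placed, and for 1 member lower, ME1, where it was 2.05%. Each share is 1 of 38 members, close to that of all genes.

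**Figure D1:**
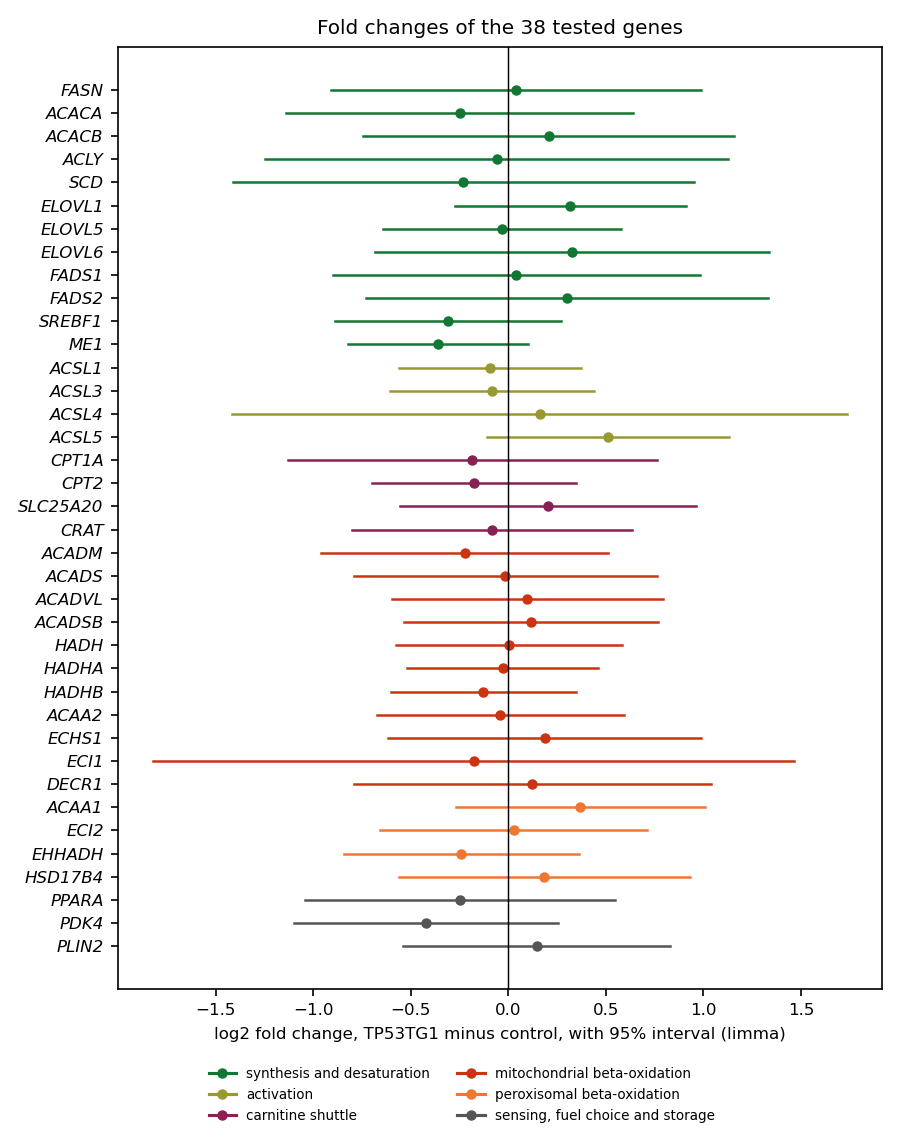
Log2 fold change of each tested gene, TP53TG1 minus control, with its 95% interval from limma without the replicate block, coloured by role. Every interval includes 0, the widest being those of ECI1 and ACSL4.

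The width of these intervals shows how closely each log2 fold change was estimated in the main fit. The intervals hold for each gene alone, while calls rested on p-values adjusted over all tested genes. They therefore do not give the size of change that would have been called. TP53TG1 itself, at a log2 fold change of 3.83 (SE 0.34), had an adjusted p of 0.0465 by limma. For HADHA, the most evenly expressed of the oxidation genes, the 95% interval of the log2 fold change ran from -0.52 to 0.46, while for ECI1 it ran from -1.82 to 1.47. A change of the size of 1 on the log2 scale therefore lies outside the interval for HADHA and inside it for ECI1.

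Among the synthesis genes FASN was the most abundant on average. It stood at 133, 172 and 120.2 scaled FPKM in controls 1 to 3 and at 84.2, 140 and 255 in TP53TG1 replicates 1 to 3. The TP53TG1 group held both the lowest and the highest library, and its log2 fold change was 0.041 (SE 0.40). ACLY was at 34.4, 78.7 and 65.4 in the controls and at 25.5, 73.7 and 82.9 with TP53TG1 (log2 fold change -0.058, SE 0.51). The lowest library of each group was the one numbered 1. ACACA, the cytosolic carboxylase that supplies malonyl-CoA for synthesis, was at 14.7, 31.3 and 20.02 in the controls and at 10.9, 20.3 and 23.9 with TP53TG1 (log2 fold change -0.25, SE 0.38). ACACB, the carboxylase of the mitochondrial surface whose product restrains CPT1A, lay far lower, between 0.845 and 3.40 scaled FPKM. ACACA exceeded ACACB by 7.04 to 23.7 times in every library.

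Desaturation genes were lowest in replicate 1 of each group. SCD, which encodes the delta-9 desaturase that makes oleate, was at 45.3, 130.04 and 104 scaled FPKM in the controls and at 39.1, 105 and 91.4 with TP53TG1. Within each group replicate 1 was lowest, and the groups overlapped (log2 fold change -0.23, SE 0.50). FADS2, the delta-6 desaturase gene, was at 18.4, 55.9 and 37.98 in the controls and at 28.1, 53.5 and 49.7 with TP53TG1 (log2 fold change 0.30, SE 0.44). FADS1, the delta-5 desaturase gene, which lies beside FADS2 on chromosome 11, ranged from 33.0 to 75.8 and was likewise lowest in both libraries numbered 1. The FADS2 to FADS1 ratio kept a narrower range, 0.555 to 0.837, than the 3.05-fold range of FADS2 itself.

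The elongase genes did not share 1 pattern. ELOVL1, which extends saturated very long chains, was highest in TP53TG1 replicate 1 at 109 scaled FPKM and lowest in control replicate 2 at 64.2. ELOVL5, which acts on polyunsaturated chains, ranged from 39.6 to 66.9, and ELOVL6, which extends palmitate, from 9.35 to 31.3. Both were lowest in the libraries numbered 1. Of the 31.3 for ELOVL6, in TP53TG1 replicate 2, a 204 nt model at 0 in all other libraries held 14.3. SREBF1 was at 75.4, 89.9 and 95.6 in the controls and at 65.1, 90.8 and 57.1 with TP53TG1 (log2 fold change -0.31, SE 0.25). TP53TG1 replicate 2 lay within the control range and the other 2 below it.

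ME1 encodes cytosolic malic enzyme, which supplies NADPH for synthesis. It stood at 69.4, 73.4 and 71.5 scaled FPKM in the controls and at 59.3, 58.9 and 48.7 in the TP53TG1 libraries, a mean of 71.4 ± 2.01 against 55.6 ± 6.03 (SD, n = 3 each). The groups did not overlap, and libraries of the same number gave TP53TG1 to control ratios of 0.854, 0.803 and 0.681. The log2 fold change was -0.36 (SE 0.20), with an unadjusted p of 0.108 and an adjusted p of 1.00 by limma. Over 17 other settings its log2 fold change stayed below 0 and its adjusted p ran from 0.318 to 1.00.

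Of the acyl-CoA synthetase genes, which activate free fatty acids, ACSL3 and ACSL1 were abundant and even. ACSL3 ranged from 55.6 to 81.0 scaled FPKM and ACSL1 from 36.2 to 45.9, with all 6 libraries of ACSL1 within 1.27-fold. The evenness is that of sums over transcripts. Coding transcripts held 64.3% and 40.8% of ACSL3 in control and TP53TG1 replicate 1, and 96.3% to 99.2% elsewhere. ENST00000281455 of ACSL1 was at 9.35 and 2.20 scaled FPKM in these 2 libraries and at 24.9 to 32.5 elsewhere. ACSL5, which encodes an isoform known from intestine and liver, was at 7.14, 8.61 and 8.05 in the controls and at 8.70, 11.9 and 15.4 with TP53TG1. The highest control lay just under the lowest TP53TG1 library, and the log2 fold change of 0.51 (SE 0.26) had an unadjusted p of 0.0930 and an adjusted p of 1.00 by limma. ACSL4, which prefers arachidonate, was at 0.540, 5.72 and 4.71 in the controls and at 1.11, 6.09 and 4.51 with TP53TG1 (log2 fold change 0.16, SE 0.67). Both libraries numbered 1 lay well below the other 4, an 11.3-fold range that was the widest of the tested members.

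Genes of the carnitine shuttle were of modest level. CPT1A, the rate-limiting entry step, was at 9.20, 4.30 and 6.49 scaled FPKM in the controls and at 9.83, 4.56 and 3.60 with TP53TG1, with replicate 1 the highest of each group (log2 fold change -0.18, SE 0.40). CPT2, its partner on the inner membrane, ranged only from 6.21 to 8.26. The ratio of CPT1A to CPT2 was 1.27 in control replicate 1 and 1.56 in TP53TG1 replicate 1, and 0.520 to 0.830 elsewhere. SLC25A20, the carnitine-acylcarnitine carrier gene, ranged from 6.31 to 13.1, and CRAT, the carnitine acetyltransferase gene, from 13.7 to 25.7.

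Within mitochondria ACADVL, the very long chain acyl-CoA dehydrogenase gene, had the highest sum over transcripts of all 39 genes. It was at 348, 225 and 253 scaled FPKM in the controls and at 397, 238 and 257 with TP53TG1 (log2 fold change 0.10, SE 0.30). Replicate 1 was the highest of each group. Protein-coding transcripts held only 26.2% to 37.5% of the ACADVL sum, and its leading transcript 24.1% on average, so the rank is that of the sum. ACADM, the medium chain enzyme gene, went the opposite way between libraries, at 17.5, 23.1 and 20.2 in the controls and at 11.2, 25.0 and 17.7 with TP53TG1 (log2 fold change -0.22, SE 0.31). ACADS, for short chains, ranged from 6.99 to 13.4, and ACADSB, for short branched chains, from 0.835 to 1.98. The order ACADVL, ACADM, ACADS and ACADSB held in every library except TP53TG1 replicate 1, where ACADS at 13.1 exceeded ACADM at 11.2. Later steps were covered by ECHS1, the short chain hydratase gene (29.1 to 64.9), HADH, the short chain hydroxyacyl-CoA dehydrogenase gene (14.7 to 23.9), and ACAA2, the thiolase gene (39.4 to 74.2). ECI1 and DECR1 act on unsaturated fatty acids. ECI1 was at 71.6 in control replicate 1 and 94.7 in TP53TG1 replicate 1, and between 17.1 and 26.6 elsewhere, and DECR1 at 83.1 and 97.4 against 37.9 to 54.6.

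HADHA and HADHB encode the subunits of the mitochondrial trifunctional protein, which carries out the last 3 reactions of the cycle on long chains, and they were the steadiest pair in the set. HADHA was at 99.6, 100.1 and 82.4 scaled FPKM in the controls and at 101, 93.5 and 81.7 with TP53TG1 (log2 fold change -0.028, SE 0.21). HADHB was at 42.0, 43.4 and 35.3 in the controls and at 39.2, 37.2 and 33.6 with TP53TG1. Their ratio was 2.37, 2.31 and 2.33 in the controls and 2.59, 2.51 and 2.43 with TP53TG1, so that it varied by less than either gene and the groups did not overlap. It was 1 of 11 ratios computed after the values were seen, the only 1 whose groups did not overlap, and it was not tested.

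The genes are transcribed away from each other on chromosome 2, from RefSeq starts (GRCh38.p14) at 26244632 on the minus strand for HADHA and 26244939 on the plus strand for HADHB, with 306 bases between them. The 250 bases of that interval next to HADHB are shown on the plus strand because both genes start from it (chr2:26244689-26244938).

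HADHA-HADHB interval: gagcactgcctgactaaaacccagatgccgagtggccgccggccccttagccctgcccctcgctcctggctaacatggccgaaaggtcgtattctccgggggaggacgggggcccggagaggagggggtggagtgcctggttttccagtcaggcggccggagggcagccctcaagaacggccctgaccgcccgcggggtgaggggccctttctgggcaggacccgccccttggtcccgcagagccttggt

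Peroxisomes start the breakdown of very long and branched chains. HSD17B4, the D-bifunctional protein gene, was at 66.8, 41.8 and 41.5 scaled FPKM in the controls and at 79.3, 41.2 and 52.3 with TP53TG1 (log2 fold change 0.18, SE 0.32). EHHADH, the L-bifunctional protein gene and a classical PPARA target, was low, at 3.14, 2.92 and 1.97 in the controls and at 1.78, 2.35 and 2.15 with TP53TG1 (log2 fold change -0.24, SE 0.26). ACAA1, the peroxisomal thiolase gene, ranged from 24.6 to 48.8, and ECI2, an isomerase gene found in peroxisomes and mitochondria, from 17.2 to 34.3. Libraries of the same number gave ACAA1 ratios of 1.41, 1.17 and 1.34, all above 1, while the groups overlapped.

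Of the remaining genes PLIN2, which encodes the coat protein of lipid droplets, was abundant, at 127, 65.9 and 81.9 scaled FPKM in the controls and at 115, 82.8 and 97.3 with TP53TG1 (log2 fold change 0.15, SE 0.29). PPARA was at 2.72, 6.78 and 4.38 in the controls and at 2.99, 4.69 and 3.10 with TP53TG1 (log2 fold change -0.25, SE 0.34). PDK4, the pyruvate dehydrogenase kinase gene that spares glucose when fat is burned, was at 1.69, 2.18 and 1.26 in the controls and at 1.23, 1.33 and 0.547 with TP53TG1 (log2 fold change -0.42, SE 0.29). The PDK4 groups overlapped between 1.26 and 1.33.

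**Figure D2:**
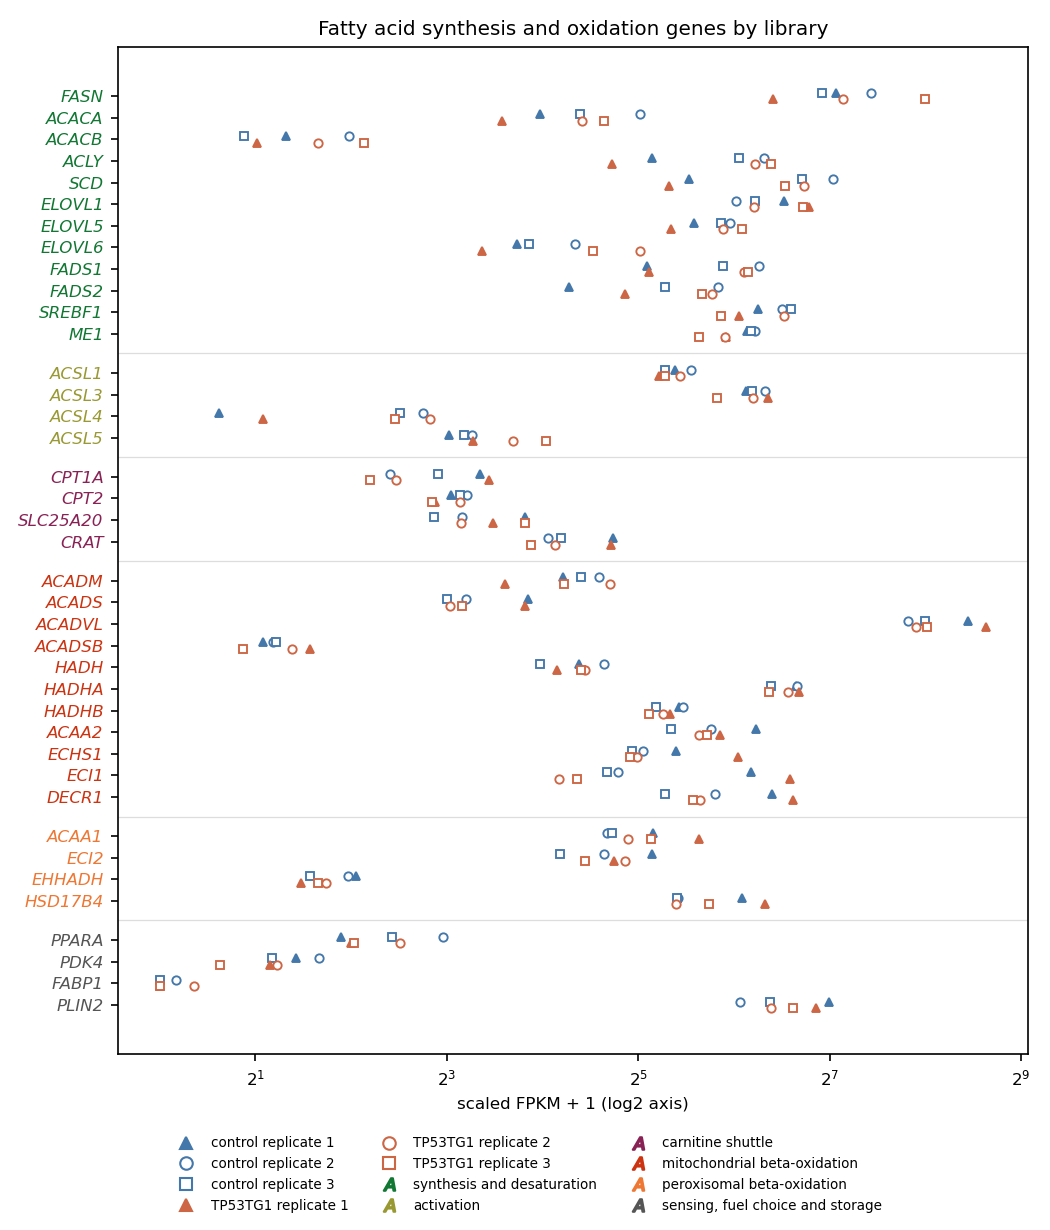
Scaled FPKM + 1 of each of the 39 genes on a log2 axis, 1 symbol per library, with the libraries numbered 1 as filled triangles and gene names coloured by role. In most synthesis genes both triangles lie to the left of the other symbols, and in most oxidation genes to the right.

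Set against each other within a library, synthesis and oxidation set apart both libraries numbered 1 and did not separate the plasmids. The mean log2 level of the 12 synthesis genes minus that of the 15 beta-oxidation genes was -0.059, 0.96 and 0.85 in controls 1 to 3 and -0.26, 0.92 and 1.05 in TP53TG1 replicates 1 to 3. The group means were 0.59 ± 0.56 and 0.57 ± 0.72 (SD, n = 3 each), a difference of -0.017 that is small beside the spread. Without the libraries numbered 1 they were 0.91 and 0.99, and leaving out 1 library in turn moved the difference between -0.34 and 0.40. Within pairs of the same number, TP53TG1 minus control was -0.20, -0.043 and 0.20. As a share of the summed FPKM of all 39 genes, synthesis genes held 31.5%, 47.7% and 44.9% in the controls and 27.3%, 45.5% and 48.6% with TP53TG1. Mitochondrial beta-oxidation genes held 44.4%, 33.1% and 34.2%, and 48.3%, 33.4% and 31.4%. Synthesis was thus the larger share in 4 libraries and the smaller in the 2 numbered 1.

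**Figure D3:**
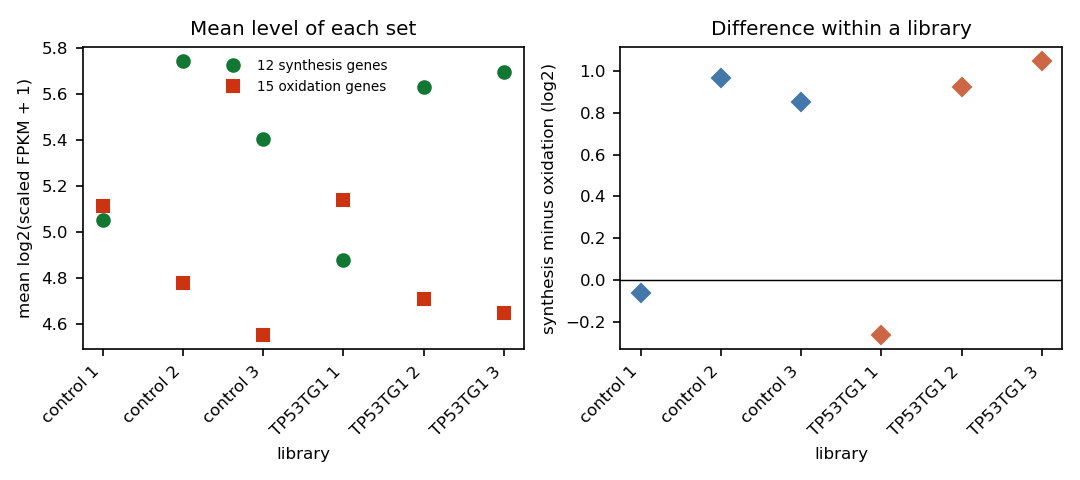
Left, mean log2(scaled FPKM + 1) of the 12 synthesis genes (circles) and the 15 beta-oxidation genes (squares) in each library; right, their difference within the library (blue, control; orange, TP53TG1). The difference is below 0 in both libraries numbered 1 and between 0.85 and 1.05 in the other 4.

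Gene by gene, 7 of 12 synthesis genes had both libraries numbered 1 below all 4 others, where 29.3% of all tested genes did. These were ACACA, ACLY, SCD, ELOVL5, ELOVL6, FADS1 and FADS2. None of the synthesis genes had both above, where 28.9% of all tested genes did. Of the 15 beta-oxidation genes 8 had both above, namely ACADS, ACADVL, ACAA2, ECHS1, ECI1, DECR1, ACAA1 and HSD17B4, and 1, ACADM, had both below. CPT1A, CRAT and PLIN2 were also above, and ACSL4 and PPARA below. For HSD17B4 the placing is that of the sum over transcripts. Of this sum, protein-coding transcripts held 40.5% to 64.7% in the other 4 libraries. They held only 27.1% (control) and 9.37% (TP53TG1) in those numbered 1, where ENST00000509606 had the largest share and ENST00000256216 had it elsewhere. By coding transcripts alone, HSD17B4 did not have both libraries numbered 1 above the others, and TP53TG1 replicate 1 was its lowest library. Since both libraries are a single pair, no test was made of the number.

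The difference between replicate 1 and the mean of replicates 2 and 3 was similar in both groups, with a Pearson correlation of 0.834 across the 38 members and 0.798 across 11273 coding genes, whose points share the same libraries. It moved with transcript length. Over all tested coding genes, its median was 0.65 in the controls and 0.81 with TP53TG1 for genes whose longest coding transcript is under 1500 nt, and -0.51 and -0.56 for those of 5000 nt or more. Synthesis genes are long, with a median of 4432 nt, and beta-oxidation genes short, with a median of 2142 nt. Relative to coding genes of the same length range, the medians of the synthesis genes went from -0.35 in the controls and -0.91 with TP53TG1 to -0.16 and -0.57, with 6 of 12 below in both groups and 0 above. Those of the beta-oxidation genes went from 0.45 in both to 0.39 and 0.27, with 11 of 15 above in both groups and 3 below. The same counts over all coding genes were not taken, so how unusual these are is not known. Without the length step, 5218 of all 12853 tested genes lay above 0 in both groups and 5160 below. What part of the pattern goes with length, RNA quality or the state of the cells was not tested.

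**Figure D4:**
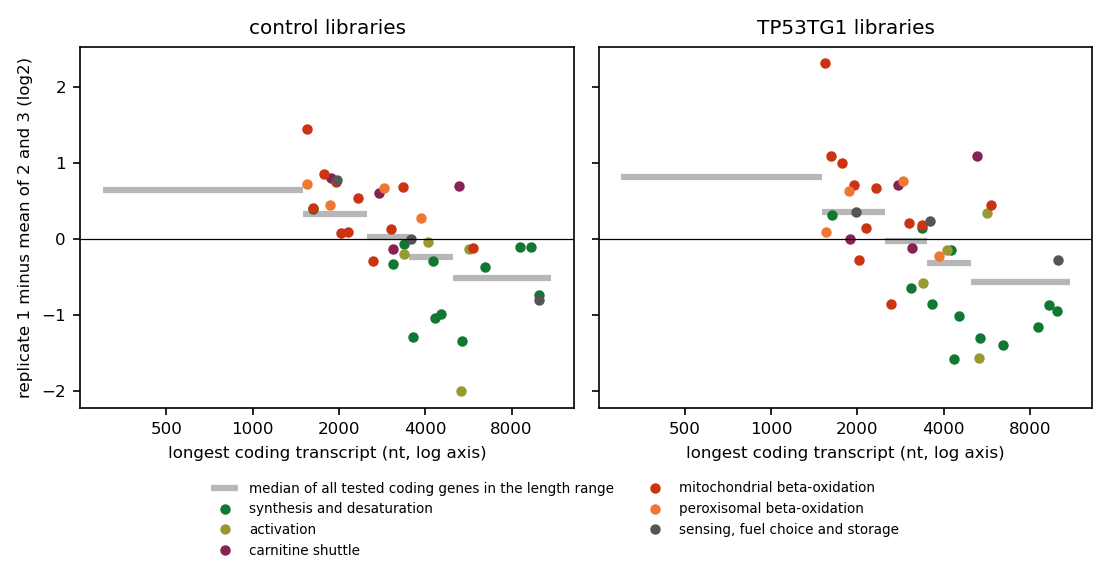
Log2 level in replicate 1 minus the mean of replicates 2 and 3, in control (left) and TP53TG1 libraries (right), against the longest coding transcript of the gene on a log axis. Points are members coloured by role; grey bars are medians of all tested coding genes in 5 length ranges, which run from above 0 for short genes to below 0 for long ones.

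The files give a value per annotated transcript, and the libraries numbered 1 differed there too. For FASN the full-length transcript ENST00000306749 of 8565 nt held 64.0% and 61.8% of the gene's FPKM in controls 2 and 3 and 62.0% and 59.6% in TP53TG1 replicates 2 and 3. It held 34.6% in control replicate 1 and 29.3% in TP53TG1 replicate 1, where the 951 nt retained intron model ENST00000578424 held 60.4% and 67.9%. That model lies between 674 and 2362 bases from the 3′ end of a gene spanning 20000 bases. For ACSL1 the 3832 nt transcript ENST00000281455 held 64.7% to 77.5% in the 4 other libraries. In control replicate 1 it held 22.997%, and in TP53TG1 replicate 1 it held 6.07%. There ENST00000503407, a 2409 nt model within 11107 bases of the 3′ end of a 71224-base gene, held 69.7% and 86.3%.

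The same was seen in SREBF1 and ACSL3. ENST00000395756, a 3026 nt SREBF1 model annotated for nonsense-mediated decay, held 18.5% in control replicate 1 and 41.5% in TP53TG1 replicate 1, and between 3.08% and 4.09% in the others. ENST00000495541, a 749 nt retained intron model of ACSL3, held 20.3% and 47.6% there and at most 0.524% elsewhere. It ranks below another ACSL3 transcript by mean share and was chosen after its values were seen. All 4 models start well inside their genes, toward the 3′ end. For these 4 genes the sum in the libraries numbered 1 therefore rests more on such models. Between the plasmid groups, the mean share of a gene's leading transcript differed by at least 10 percentage points in 6 of the 38 genes, ELOVL6, ACSL1, SLC25A20, ACADM, EHHADH and PPARA. The number was 12 without control replicate 1 and 13 without TP53TG1 replicate 2 or 3. For ACADM, where the share of ENST00000370841 was 32.8 ± 5.76% in the controls and 50.2 ± 21.1% with TP53TG1 (SD, n = 3 each), the highest value, 73.1%, was in TP53TG1 replicate 1. For ELOVL6 a 204 nt model listed at 0 in the other 5 libraries held 45.7% of the gene in TP53TG1 replicate 2.

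**Figure D5:**
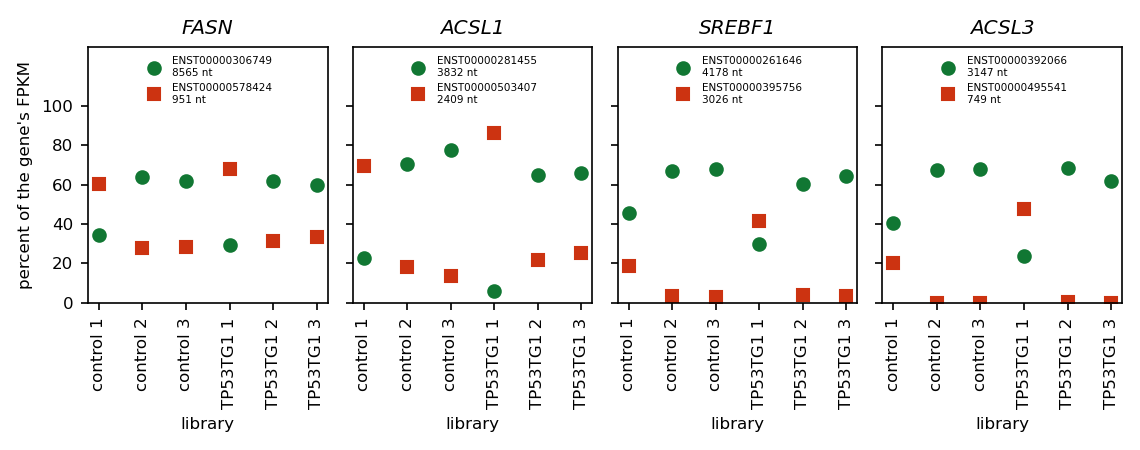
Share of the gene's FPKM held by the leading transcript, that of the highest mean share (circles), and by a model toward the 3′ end (squares) of FASN, ACSL1, SREBF1 and ACSL3 in each library. In both libraries numbered 1 the squares lie higher and the circles lower than in the other 4.

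Upstream sequences of the synthesis and beta-oxidation genes were described side by side. RefSeq windows from 250 bases before to 50 after the start (GRCh38.p14) were held for 34 members. The CCAAT box, bound by the factor NF-Y that acts with SREBP at lipogenic promoters, was searched as CCAAT on both strands. It was in a window of 7 of 11 synthesis genes, ACACA, ACACB, ACLY, SCD, ELOVL1, ELOVL5 and FADS2, and of 1 of 12 beta-oxidation genes, HADH. By window that is 56.2% and 6.67%, beside 34.6% of all 35116 windows. The core of the sterol regulatory element, searched as TCACNCCAC on both strands, was in 0 of the 23 synthesis and beta-oxidation genes with a window and in 1 other member, ACSL1, beside 1.13% of all windows. The E-box CACGTG, its own reverse complement, was in ELOVL5 and PLIN2, beside 7.26% of all windows. These matches are a description of the letters. SCD, ACLY and ELOVL5 are shown as examples that hold the CCAAT box 2 times each and were low in both libraries numbered 1. ACACA and FADS2 also hold it and were low there, while ELOVL6 and FADS1 were low with no match listed. ACACB and ELOVL1 hold it without being low in both. For ELOVL1, replicate 1 lay above the mean of replicates 2 and 3, by 0.40 in the controls and 0.32 with TP53TG1 (log2). A link between the box and these levels was not tested. Each stretch is written in the direction of its gene, with the box or its reverse complement in capitals (SCD chr10:100346986-100347026 and chr10:100347029-100347069, plus strand; ACLY chr17:41919065-41919105 and chr17:41919023-41919063, minus strand; ELOVL5 chr6:53349050-53349090 and chr6:53348996-53349036, minus strand).

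SCD first box: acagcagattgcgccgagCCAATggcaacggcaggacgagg
SCD second box: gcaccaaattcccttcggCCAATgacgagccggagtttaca
ACLY first box: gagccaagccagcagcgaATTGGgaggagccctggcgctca
ACLY second box: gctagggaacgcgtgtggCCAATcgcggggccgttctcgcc
ELOVL5 first box: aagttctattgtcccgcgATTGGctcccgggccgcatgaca
ELOVL5 second box: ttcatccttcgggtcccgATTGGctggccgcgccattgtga

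Further genes of the same pathways were read from 5 lists of 100 genes in all, of which 83 were tested and 0 passed. Of the 83, 31 lay above and 52 below 0, at a median log2 fold change of -0.054. Among all 12853 tested genes 6315 lay above and 6538 below 0, at a median of -0.0040. Groups did not overlap for 2 of the 83, both lower with TP53TG1, where 2.05% of all tested genes were so placed. For 0 of the 83 they were higher, where it was 2.01%. Among other synthesis and elongation genes, 7 of 15 lay above 0, at a median log2 fold change of -0.0013. ACSS2, which makes acetyl-CoA from acetate, was at 8.09 ± 1.23 scaled FPKM in the controls and 10.1 ± 1.28 with TP53TG1 (SD, n = 3 each). Among 14 genes of lipogenic control 3 lay above 0, at a median of -0.15. The lowest was MLXIPL, which encodes the glucose-responsive factor ChREBP, at 13.4, 11.2 and 17.5 in the controls and at 16.6, 8.63 and 3.61 with TP53TG1. PRKAB1, a regulatory subunit gene of the AMP-activated kinase, was at 19.3 ± 1.64 and 15.7 ± 1.86 (SD, n = 3 each) with groups that did not overlap.

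Among 26 other oxidation genes tested 6 lay above 0, at a median of -0.095. ACAD10, which encodes an acyl-CoA dehydrogenase family member, was at 14.6, 10.4 and 10.6 scaled FPKM in the controls and at 10.2, 9.77 and 9.68 with TP53TG1, with groups that did not overlap. Of 13 genes of oxidation control 6 lay above 0, at a median of -0.035. ANGPTL4, a PPAR target that inhibits lipoprotein lipase, was at 155 in control replicate 1 and 238 in TP53TG1 replicate 1, and between 22.2 and 52.5 elsewhere. Of 15 genes of lipid droplets, esterification and transport 9 lay above 0, at a median of 0.0073. MTTP, which loads lipid onto apolipoprotein B, was at 8.07, 16.9 and 6.81 in the controls and at 1.198, 9.88 and 3.85 with TP53TG1 (log2 fold change -1.15, SE 0.60, limma adjusted p = 1.00). TP53TG1 lay below control in each of the 3 pairs of the same number, and the groups overlapped.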

How the data were processed

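The authors deposited 1 FPKM value per annotated transcript and library; the file headers do not name the unit, which was read from the values (not whole, with totals from 599081 to 890541). The submitters' processing notes list HISAT2, StringTie and GRCh38.p10. For tool versions, parameters, strand and the authors' annotation, nothing is given in the sources used here. Blank gene names were filled by transcript from the other files, and transcripts were summed per gene. Positions, lengths and biotypes came from GENCODE 29 (GRCh38), which held 99.8% of the transcripts.

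FPKM were divided by median-of-ratios factors, because unscaled values leave a general shift between the groups, and log2(FPKM + 1) was tested with limma 3.58.1 in R 4.3.3 (eBayes with a mean-variance trend; mean of at least 1 deposited FPKM; Benjamini-Hochberg over all tested genes, threshold 0.05), TP53TG1 minus control. With the added 1, fold changes of weakly expressed genes come out too small. Tables and figures were made in Python 3.11.15 with pandas 2.3.3 and matplotlib 3.10.9. Depth was estimated from percentile 5 of FPKM times length over single-transcript genes between 300 and 600 nt long, taken as 1 fragment.

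Deviations from the group means correlated at 0.721, 0.576 and 0.313 between libraries of the same number, above the limit of 0.1, so the numbers were taken to pair the libraries, from the data and not the labels. For 4 of 6 libraries the best match was the one of the same number. Control replicate 3 correlated at 0.424 with TP53TG1 replicate 2, and TP53TG1 replicate 3 at 0.330 with control replicate 2, both above 0.313. The pair numbered 3 was thus not the closest match for either of its libraries.

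Members and lists were chosen with earlier results of these data known. All members could be named; fold changes with errors were given for a set of members listed by name and for those with an unadjusted p under 0.05 or groups that did not overlap. From each other list up to 4 genes with the smallest p could be named. Of these 20 genes, 6 are described, chosen after their values were seen, and the others are not reported here. Alternatives covered scaling, pseudocount, filter, block, variance model, left-out libraries and, chosen after seeing the data, protein-coding transcripts only.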

Additional observations from a re-analysis of the deposited data

How the results depend on the processing

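No member was called under any of the 17 alternative settings, and the difference in synthesis minus beta-oxidation level moved by less than the spread between replicates of a group under all of its alternatives. That spread is mostly that of the libraries numbered 1. Within same-number pairs the SD was 0.20, and the difference ran from -0.34 to 0.40 with 1 library left out in turn, for some libraries a larger move than that. The number of genes called over the whole table was 2 in the main setting, 1 with no scaling, with TPM or with a pseudocount of 0.1, 0 with no filter, without the variance trend or with protein-coding transcripts only, 6 with the replicate block, 192 with the block and no scaling, and 10 without both libraries numbered 1. At an unadjusted p under 0.05 it was 535 with no filter, 158 without the trend and 89 with coding transcripts only. Leaving out 1 library in turn it was 0 to 2, and the number of leading transcripts whose share differed by at least 10 percentage points, 6 with all libraries, was 5 to 13. The replicate block changed the call of no member.

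Of 302 log2 fold changes of the 18 named members under other settings, 260 kept their sign and 42 did not, none of them called. With no scaling, with or without the replicate block, the sign turned for FASN (-0.36), FADS2 (-0.092), ACSL4 (-0.066), ACADVL (-0.31), HSD17B4 (-0.22) and PLIN2 (-0.26). With TPM it turned for FASN (-0.10) and ACADVL (-0.043), with coding transcripts only for FASN (-0.047), ACSL4 (-0.23) and HSD17B4 (-0.24), and without both libraries numbered 1 for ACLY (0.13). Leaving out 1 library in turn, the log2 fold change ran from -0.36 to 0.42 for FASN, -0.49 to 0.066 for ACACA, -0.40 to 0.47 for ACLY, -0.67 to 0.20 for SCD, -0.12 to 0.65 for FADS2, -0.50 to 0.71 for ACSL4, -0.56 to 0.072 for CPT1A, -0.49 to 0.058 for ACADM, -0.13 to 0.28 for ACADVL, -0.12 to 0.060 for HADHA, -0.072 to 0.41 for HSD17B4, -0.51 to 0.020 for PPARA and -0.061 to 0.41 for PLIN2. The causes were not tested. SREBF1, ME1, ACSL5, EHHADH and PDK4 kept their sign under every setting in which they were tested.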
